A study of Mus musculus with 6 samples.

Results

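The genes Zfp600 to Zfp999 are mouse zinc finger genes whose symbol is Zfp followed by a number of 3 digits that starts with 6, 7, 8 or 9. A gene was a member where the array's annotation gave exactly 1 symbol of this form for a probe set, and where a gene had several such probe sets, the one with the highest mean stood for it. This gave 139 members among the 19938 genes with a single-symbol probe set. Their RNA was measured in mouse embryonic stem (ES) cells grown with vitamin C (L-ascorbic acid 2-phosphate at 200 μg/ml, 72 hours, 3 arrays) and in untreated cells of the same line (3 arrays). Both groups were Oct4-GiP ES cells, a line that carries a reporter driven by the Oct4 gene. Both grew on gelatin in N2B27 medium with LIF at 1000 U/ml, the MEK inhibitor PD0325901 at 1 μM and the GSK3β inhibitor CHIR99021 at 3 μM, so the untreated cells also had both inhibitors. The replicates are biological triplicates of 1 line according to the series' design.

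Most zinc finger genes of this numbering belong to the C2H2 class, in which each finger folds around a zinc ion and reads a few bases of DNA. Many of the mouse proteins also carry a KRAB domain, which recruits the corepressor Trim28 and, through it, the histone methyltransferase Setdb1. In ES cells these proteins are known for silencing endogenous retroviruses, and many of them bind their own set of repeats. Many of the genes lie in clusters of tandem copies, some of them recent and nearly identical. Vitamin C is a cofactor of iron-dependent dioxygenases, among them the Tet enzymes that oxidise 5-methylcytosine and the JmjC histone demethylases.

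The values are log2 signals. A level can be compared between arrays for 1 probe set, not between genes, and for close copies a probe set may also bind RNA of the copy, so separate values of such copies are uncertain. Array medians lay between 5.52 and 5.60, and the lower quartiles between 3.99 and 4.05. Arrays correlated with r of 0.995 to 0.996 within a group and of 0.989 to 0.990 between groups, over all genes. All 10 ES cell markers lay above the upper quartile on every array, and 2 of them, Nanog and Zfp42, rose. Of 15 fibroblast or feeder markers, 8 rose and 1 fell, and their mean log2 level was 6.37 to 6.43 in vitamin C arrays and 5.85 to 5.94 in untreated arrays, with 2 of the 15 under the lower quartile of every array. Of 6 primitive endoderm markers 2 rose (mean level 5.74 to 5.80 with vitamin C and 5.48 to 5.57 untreated), and of 6 trophectoderm markers 1 rose and 2 fell (mean level 5.91 to 5.97 with vitamin C and 6.03 to 6.14 untreated). None of 3 neuroectoderm and 2 measured mesoderm markers was called. The part of these changes in the results below was not tested, and in bulk RNA fewer cells of a type and less RNA per cell cannot be told apart.

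Of the 139 members, 6 rose and 15 fell with vitamin C (limma, adjusted p under 0.05 over all 19938 genes), and 118 did not pass the test. The called members made up 15.1%, against 13.2% of all genes tested. Rises made up 4.32% of the members, against 5.75% of all genes, and falls made up 10.8%, against 7.40%. The median difference, vitamin C minus untreated, was -0.06 over the members (quartiles -0.21 and 0.05) and 0.01 over all genes (quartiles -0.12 and 0.13). Differences lay below 0 for 88 members (63.3%), against 47.2% of all genes. A trend of the difference with signal level, fitted over all genes, had a median of -0.03 over the members. The median log2 level of the members was 6.45, 6.52 and 6.44 in the 3 vitamin C arrays and 6.56, 6.54 and 6.58 in the untreated arrays, so these 2 sets of medians did not overlap. Over all 19938 genes the array medians were 5.97 to 5.99. The 178 measured genes Zfp1 to Zfp599 had 9 rises and 17 falls (14.6% called) and a median of -0.04. Whether the numbering groups differ in these counts was not tested.

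**Figure D1:**
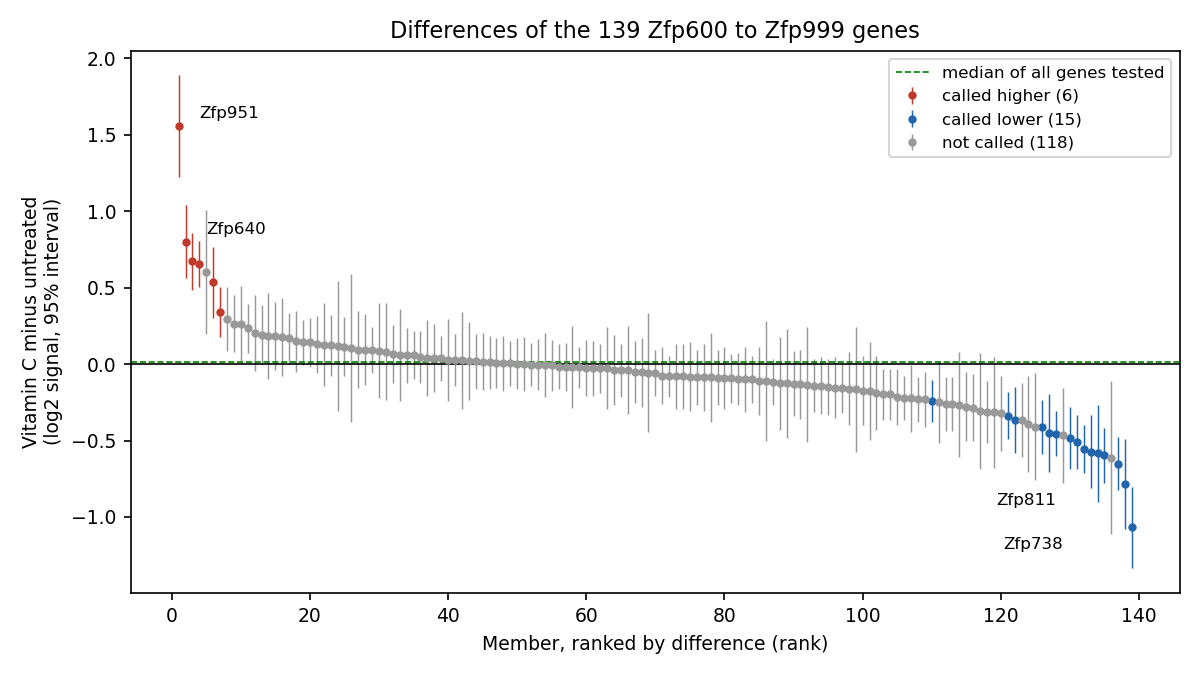
The log2 difference (vitamin C minus untreated, vertical axis) of each of the 139 Zfp600 to Zfp999 genes, ordered by size along the horizontal axis, with 95% intervals. The 6 called rises and 15 called falls stand mostly at the ends, Zfp951 is highest at 1.56 and Zfp738 lowest at -1.07, and most members lie near 0.

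A change of 1.5-fold or more was measured in 10 members (7.19%), against 3.19% of all genes and 1.69% of the genes Zfp1 to Zfp599. Of these 10, 4 rose and 4 fell, and the other two, Zfp600 and Zfp931, were not called. Zfp931, on chromosome 2, had 4.49, 5.05 and 4.45 in vitamin C arrays and 5.37, 4.88 and 5.57 in untreated arrays, and these overlapped (-0.61 ± 0.21, limma, adjusted p = 0.106). The values of the 3 vitamin C arrays did not overlap with those of the 3 untreated arrays in 52 members (37.4%), against 35.0% of all genes. The vitamin C arrays were the higher ones in 17 members (12.2%), against 16.8% of all genes, and the lower ones in 35 (25.2%), against 18.2%. Of the genes Zfp1 to Zfp599, 25.3% had lower vitamin C arrays without overlap and 57.9% had a difference below 0. All 21 called members were among the 52 members without overlap. Of the 118 members that were not called, 108 had a 95% interval that lay wholly within 1.5-fold in either direction.

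The promoter windows of 5 called members are printed here, to show the bases ahead of genes that rose (Zfp951, Zfp640 and the retroviral silencer Zfp809) and of genes that fell (Zfp738 and Zfp946), with their CpG content. They are from RefSeq (GRCm38.p6), run 5′ to 3′ on the gene's strand, hold only bases before the first annotated base of the gene, and show CpG in capitals. Zfp951 is at chr5:104860158-104860318, minus strand and has 4 CpG, and Zfp640 is at chr13:66680804-66681053, minus strand and has 6. Zfp809 is at chr9:22225453-22225666, plus strand and has 10. Zfp738 is at chr13:67683513-67683762, minus strand and has 5, and Zfp946 is at chr17:22423952-22424181, plus strand and has 7.
Zfp951: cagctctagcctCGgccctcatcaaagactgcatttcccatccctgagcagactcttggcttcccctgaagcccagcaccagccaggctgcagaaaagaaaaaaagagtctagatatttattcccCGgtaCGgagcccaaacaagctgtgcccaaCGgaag
Zfp640: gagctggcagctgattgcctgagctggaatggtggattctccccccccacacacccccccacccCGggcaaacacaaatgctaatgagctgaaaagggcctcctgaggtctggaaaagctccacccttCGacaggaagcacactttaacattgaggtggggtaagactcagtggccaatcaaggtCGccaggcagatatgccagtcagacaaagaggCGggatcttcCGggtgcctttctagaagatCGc
Zfp809: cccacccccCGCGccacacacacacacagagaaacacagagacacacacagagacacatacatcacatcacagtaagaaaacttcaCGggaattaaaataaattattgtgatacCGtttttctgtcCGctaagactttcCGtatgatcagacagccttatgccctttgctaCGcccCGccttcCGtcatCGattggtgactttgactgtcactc
Zfp738: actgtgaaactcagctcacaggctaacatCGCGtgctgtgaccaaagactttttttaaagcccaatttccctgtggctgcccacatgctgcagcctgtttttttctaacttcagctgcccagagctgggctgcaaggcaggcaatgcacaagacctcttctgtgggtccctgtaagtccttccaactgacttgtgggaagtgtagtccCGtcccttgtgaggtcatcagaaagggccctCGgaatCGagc
Zfp946: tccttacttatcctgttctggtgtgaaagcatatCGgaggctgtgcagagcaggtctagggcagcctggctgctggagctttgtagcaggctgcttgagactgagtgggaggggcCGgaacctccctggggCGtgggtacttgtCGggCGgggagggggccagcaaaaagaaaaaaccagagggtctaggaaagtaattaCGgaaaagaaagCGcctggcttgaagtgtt

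The largest rise was that of Zfp951, on chromosome 5, a zinc finger gene to which no role is given here. It had log2 signals of 7.34, 7.54 and 7.27 in vitamin C arrays and 5.73, 5.61 and 6.13 in untreated arrays. Every vitamin C array was above every untreated array, and the difference was 1.56 ± 0.14 (SE, n = 3 each), a 2.94-fold rise (limma, adjusted p = 0.000955). Zfp640, on chromosome 13, had 9.71, 9.74 and 9.39 with vitamin C and 8.88, 8.79 and 8.77 untreated, a rise of 0.80 ± 0.10 or 1.74-fold (limma, adjusted p = 0.00367). All 3 of its probe sets were higher, by 0.80, 0.92 and 0.57. Zfp975, on chromosome 7, had 8.18, 8.10 and 8.18 with vitamin C and 7.54, 7.57 and 7.33 untreated, a rise of 0.67 ± 0.08 (limma, adjusted p = 0.00267). Probe sets that Zfp975 shares with other symbols had differences of 0.34, 0.29 and 0.09, and none of these was called (limma over all probe sets). In Zfp640 and Zfp975 too, every vitamin C array was above every untreated array.

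Zfp809 encodes the KRAB zinc finger protein that recognises the primer binding site of murine leukaemia virus and silences the provirus through Trim28 in ES cells. It had 9.54, 9.45 and 9.58 in vitamin C arrays and 8.82, 8.89 and 8.88 in untreated arrays. The groups did not overlap, and the rise was 0.66 ± 0.06, or 1.58-fold (limma, adjusted p = 0.00127). Zfp982, on chromosome 4, reported to support the expression of pluripotency genes in mouse ES cells, had 7.61, 7.57 and 7.38 with vitamin C and 7.15, 6.97 and 6.84 untreated (0.54 ± 0.10, limma, adjusted p = 0.0146). Without vitamin C replicate 1 the difference of Zfp982 was 0.49 and its call was lost (limma, adjusted p = 0.0558). Zfp961, on chromosome 8, had 9.58, 9.70 and 9.54 with vitamin C and 9.28, 9.21 and 9.31 untreated. This was the smallest of the 6 rises, 0.34 ± 0.07 (limma, adjusted p = 0.0195). The call of Zfp961 was lost without any 1 of 4 arrays, vitamin C replicates 1 and 2 and untreated replicates 1 and 2, with adjusted p of 0.054 to 0.0649 and differences of 0.30 to 0.36.

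The 15 falls ranged from 1.18-fold to 2.10-fold. Zfp738, on chromosome 13, had the largest fall. Its log2 signals were 5.95, 6.05 and 5.77 in vitamin C arrays and 7.08, 6.78 and 7.13 in untreated arrays. The groups did not overlap, the difference was -1.07 ± 0.11 (limma, adjusted p = 0.00184), and its 3 probe sets were all lower, by -1.07, -0.63 and -0.36. Zfp811, on chromosome 17, had 4.37, 4.40 and 4.04 with vitamin C and 5.09, 4.87 and 5.21 untreated, a difference of -0.78 ± 0.13 (limma, adjusted p = 0.00857). Zfp946, also on chromosome 17, had 5.45, 5.48 and 5.36 with vitamin C and 6.19, 5.999 and 6.05 untreated (-0.65 ± 0.07, limma, adjusted p = 0.00232). Zfp930, on chromosome 8, had 7.78, 7.80 and 7.85 with vitamin C and 8.38, 8.30 and 8.54 untreated (-0.60 ± 0.08, limma, adjusted p = 0.00364). In all of these genes the lowest untreated array was above the highest vitamin C array.

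**Figure D2:**
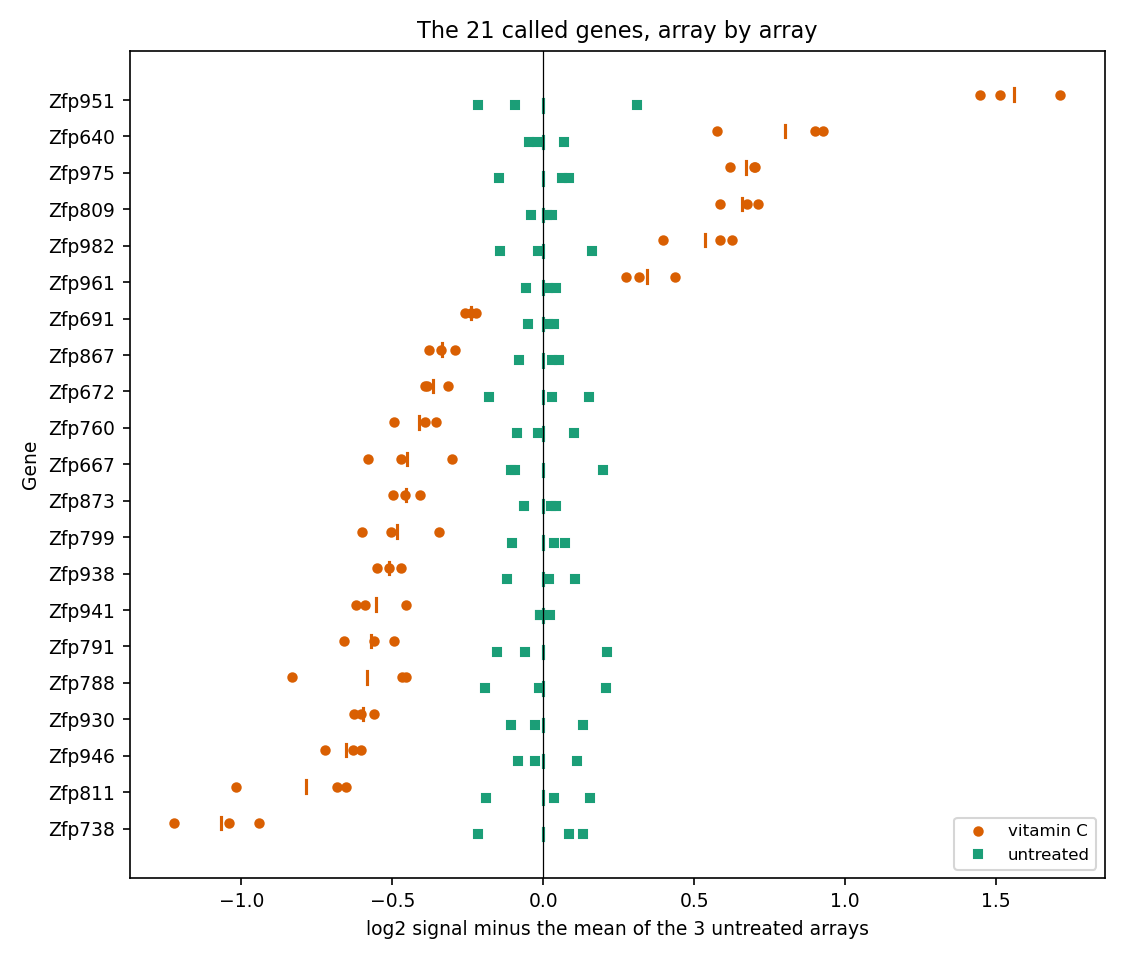
Log2 signal of each array minus the mean of the 3 untreated arrays (horizontal axis) for the 21 called genes, with vitamin C arrays as circles drawn above untreated arrays as squares and short bars for group means. In all 21 genes the circles and squares do not overlap, and the means lie farthest apart in Zfp951, which rose by 1.56, and Zfp738, which fell by 1.07.

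Smaller falls were also free of overlap between the groups. Zfp941, on chromosome 7, had 6.51, 6.37 and 6.34 with vitamin C and 6.95, 6.95 and 6.98 untreated (-0.56 ± 0.07, limma, adjusted p = 0.00296). Zfp938, on chromosome 10, had 8.59, 8.63 and 8.67 with vitamin C and 9.02, 9.16 and 9.24 untreated (-0.51 ± 0.08, limma, adjusted p = 0.00636). Zfp799, on chromosome 17, had 7.43, 7.18 and 7.27 with vitamin C and 7.67, 7.85 and 7.81 untreated (-0.48 ± 0.09, limma, adjusted p = 0.0127), and again no array of one group reached those of the other. Zfp873, on chromosome 10, had 5.77, 5.74 and 5.83 with vitamin C and 6.17, 6.27 and 6.26 untreated (-0.45 ± 0.06, limma, adjusted p = 0.00511). Zfp760, on chromosome 17, fell by 0.41 (limma, adjusted p = 0.0132).

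Besides Zfp982 and Zfp961, 6 members that fell lost their call when 1 array was left out, all with the same direction. Zfp791, on chromosome 8, had 4.73, 4.90 and 4.83 with vitamin C and 5.33, 5.24 and 5.60 untreated, a fall of 0.57 (limma, adjusted p = 0.0129), and without vitamin C replicate 1 the adjusted p was 0.0511. Zfp788, on chromosome 7, had 5.30, 5.68 and 5.67 with vitamin C and 5.94, 6.34 and 6.12 untreated, a fall of 0.58 (limma, adjusted p = 0.0314), and it kept its call only when the array left out was untreated replicate 1 (adjusted p = 0.0375, against 0.0508 to 0.0841 without each of the others). Zfp667, a gene induced by ischaemia in rat heart, fell by 0.45 (limma, adjusted p = 0.036), and kept its call only when vitamin C replicate 2 was left out (0.0405, against 0.0587 to 0.111 without each of the others). Zfp867, on chromosome 11, fell by 0.34 (limma, adjusted p = 0.0169), and the call was lost without vitamin C replicate 2 or 3 or untreated replicate 1 or 3 (0.0511 to 0.0602). Zfp691, on chromosome 4, fell by 0.24 (limma, adjusted p = 0.0381) and lost its call without any 1 of the 6 arrays (0.0654 to 0.111). Zfp672, on chromosome 11, fell by 0.37 (limma, adjusted p = 0.0402), but its second probe set was higher by 0.37 (limma over all single-symbol probe sets, adjusted p = 0.0436), and leaving out any array but untreated replicate 2 (0.0212) lost the call (0.0855 to 0.107). The rest of the 21 called members kept their call without any 1 array.

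A list of genes with a role from earlier work held 18 of this numbering, and 17 of them are members. The list is not complete, and the called members Zfp982 and Zfp667 are not on it. The other one, Zfp932, was measured only on probe sets with several symbols. Of the 17, 1 rose (Zfp809), where 5.75% of all genes rose and 13.2% were called in either direction, and 16 were not called, with differences of -0.26 to 0.14, all with 95% intervals within 1.5-fold. Zfp819, a KRAB zinc finger gene of pluripotent cells that represses endogenous retroviruses, had 4.86, 4.91 and 5.09 in vitamin C arrays and 4.98, 5.23 and 4.77 in untreated arrays, so the groups overlapped. The difference of Zfp708, whose protein binds RMER19B repeats, was -0.20 (limma, adjusted p = 0.113), and its groups did not overlap. Zfp706, known to promote the exit of ES cells from self-renewal, had 11.32, 11.22 and 11.24 with vitamin C and 11.26, 11.28 and 11.24 untreated, with overlapping groups.

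**Figure D3:**
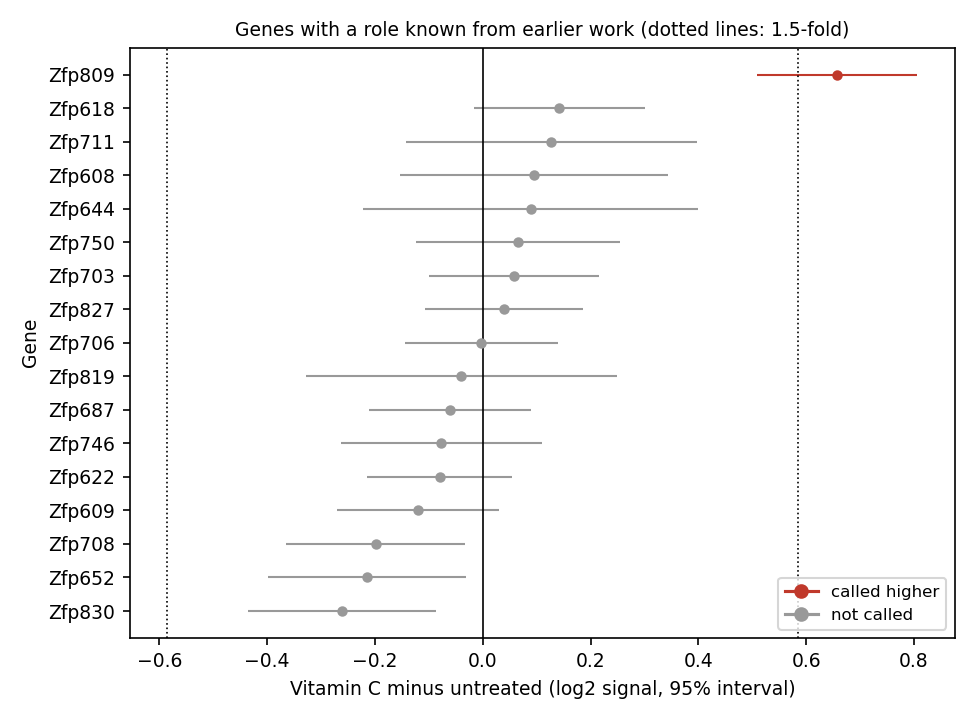
Log2 difference (vitamin C minus untreated, horizontal axis) with 95% intervals for 17 measured members from a list of genes with a role known from earlier work, from highest to lowest. Zfp809 stands at 0.66 and was called, and the other 16 lie between -0.26 and 0.14.

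None of the other listed genes was called. Zfp644, a partner of the histone methyltransferase G9a, had a difference of 0.09 (limma, adjusted p = 0.712). Zfp618, a partner of the 5-hydroxymethylcytosine reader UHRF2, had 0.14 ± 0.07 (limma, adjusted p = 0.216), and Zfp711, an X-linked partner of the demethylase PHF8, had 0.13 (limma, adjusted p = 0.517). Zfp830, needed for early embryos, had -0.26 ± 0.07 (limma, adjusted p = 0.0619) with groups that did not overlap, and Zfp652 had -0.22 (limma, adjusted p = 0.119), also with no overlap. The first of these was called where limma's spread was trended and robust (0.0288) and where dim genes were left out (0.035), and the second where it was trended and robust (0.0355). The other listed regulators had small differences with intervals inside 1.5-fold. They were Zfp608 (0.09) and its paralogue Zfp609 (-0.12), which works with the cohesin loader Nipbl and the Integrator complex, Zfp703 (0.06), a corepressor, and Zfp750 (0.06), a regulator of epidermal differentiation. Zfp827, which in human cells recruits the NuRD complex to telomeres, had 0.04, and Zfp687 had -0.06. Zfp746, a parkin substrate that represses PGC-1α, and Zfp622, a factor of ribosome assembly, had -0.08 each.

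A list of 42 names held proteins that KRAB zinc fingers work with and other silencing genes, among them the zinc finger genes Zfp57, Zfp445 and Zfp42. Of the names, 38 were measured (2 of the names, Tasor and Fam208a, are the same gene). Of the 38 measured, 3 rose, 1 fell and 34 were not called, with a median of 0.04, and 10.5% called against 13.2% of all genes. Trim28, the corepressor that binds KRAB, differed by 0.04 ± 0.06 (limma, adjusted p = 0.735), and Setdb1, which methylates histone H3 at lysine 9, by 0.16 ± 0.06 (limma, adjusted p = 0.106). Zfp57, the KRAB zinc finger gene that guards imprints, differed by 0.12 ± 0.06 (limma, adjusted p = 0.263). The rises were those of Zfp42 (also called Rex1, 0.30), Tasor, a subunit of the HUSH silencing complex (0.29), and Atf7ip, a partner of Setdb1 (0.22), and the fall was that of Uhrf1, which guides maintenance DNA methylation (-0.27). None of these reached 1.5-fold.

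Called members were looked at among their neighbours on the chromosome. With at most 5 other genes between consecutive members, 44 members lay in 11 runs of 3 or more, 24 in pairs and 71 alone. The runs held 3 of the 6 rises and 4 of the 15 falls, while 15.1% of all members and 13.2% of all genes were called. Whether calls gather in runs was not tested. Around Zfp809 on chromosome 9, the members on both sides had differences of 0.00 (Zfp872) and 0.02 (Zfp810), while the 2 measured genes between them beside Zfp809 were 1810064F22Rik, at -0.42 with groups that did not overlap (limma, adjusted p = 0.126), and Zfp599, at -0.05. None of these 4 genes was called. Pigyl, the nearest measured gene before the run, fell by 0.48 (limma, adjusted p = 0.00617). Zfp961 was the only called member of its run of 4 on chromosome 8, beside -0.19 (Zfp709), 0.18 (Zfp882) and -0.13 (Zfp617), and Fcho1, the nearest measured gene before that run, fell by 0.55 (limma, adjusted p = 0.00711).

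**Figure D4:**
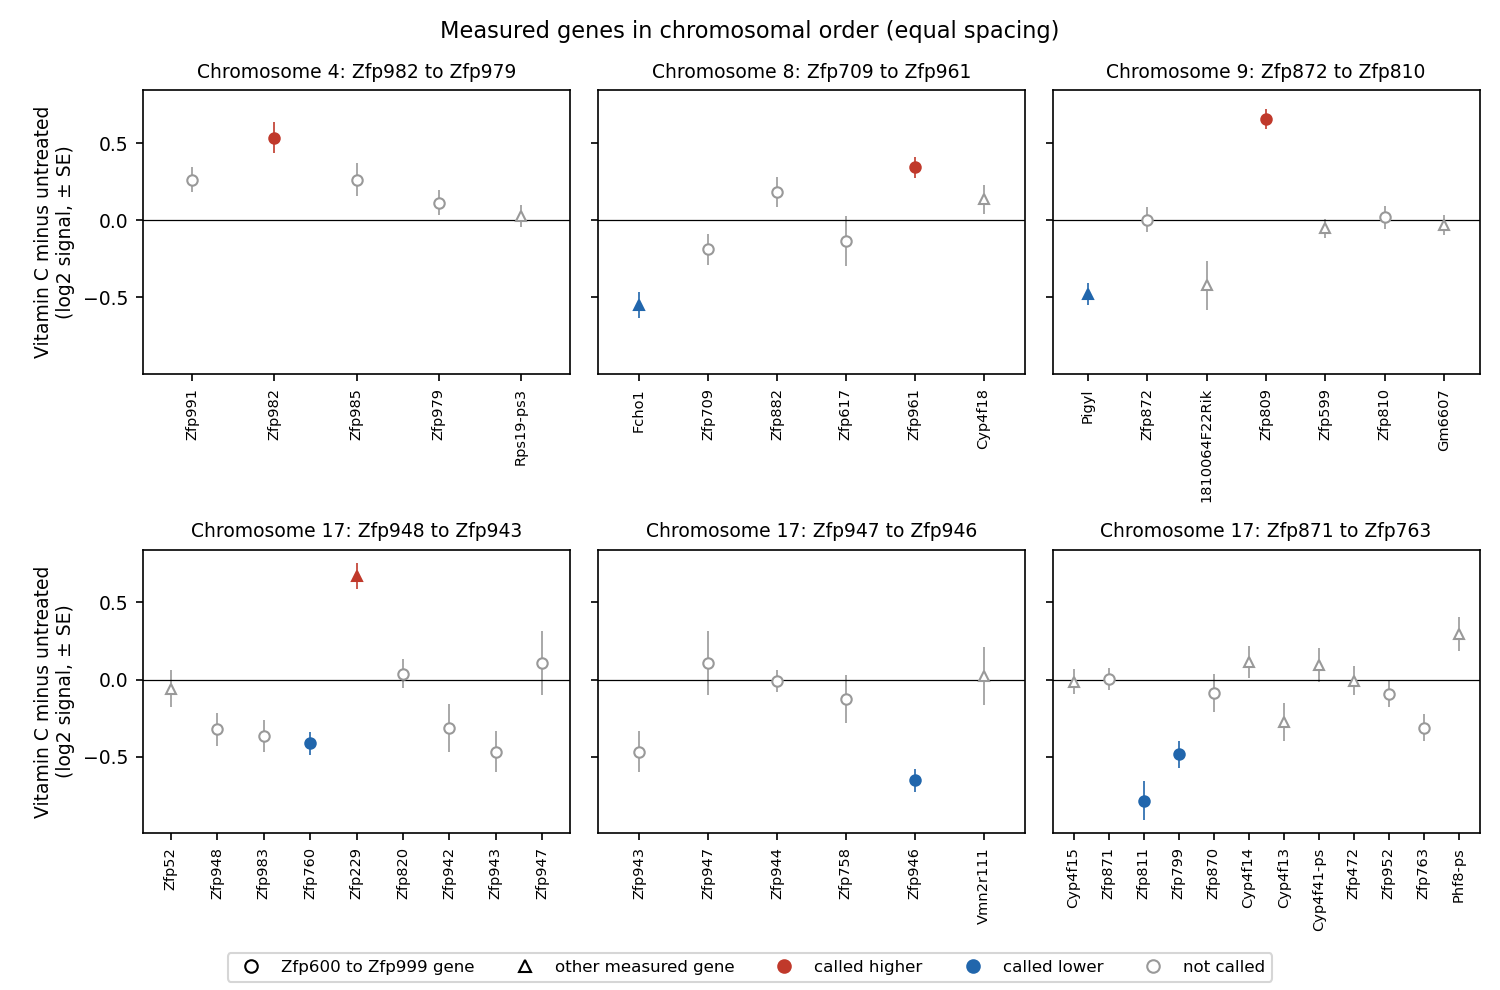
Log2 difference (vitamin C minus untreated, ± SE, vertical axis) of measured genes in chromosomal order with equal spacing, for the 6 runs that hold a called member, with circles for Zfp600 to Zfp999 genes and triangles for other genes. Zfp809 stands at 0.66 between 1810064F22Rik at -0.42 and Zfp599 at -0.05, and Zfp229 on chromosome 17 stands at 0.67 beside Zfp760 at -0.41.

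The other 5 runs held no called member. On chromosome 7, the differences ran from -0.41 (Zfp773) to -0.10 (Zfp772) in the run with Zfp954, where Zfp418, which lies among them and has a lower number, fell by 0.38 (limma, adjusted p = 0.0263). They ran from -0.39 (Zfp626) to -0.03 (Zfp850) in the run with Zfp974, and from -0.20 (Zfp719) to -0.04 (Zfp819) in the run with Zfp658. All 9 members of these 3 runs lay below 0. In the run of 6 from Zfp771 to Zfp689 they ran from -0.16 (Zfp688) to 0.18 (Zfp768). On chromosome 8, the run of Zfp868, Zfp869 and Zfp866 spanned -0.09 (Zfp868) to 0.01 (Zfp869).

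Chromosome 17 held 19 members, of which none rose and 4 fell, with 15 below 0 and a median of -0.16. All 940 genes of that chromosome had 3.19% higher and 9.15% lower calls and a median of -0.01. In 1 run there, Zfp948, Zfp983, Zfp760, Zfp942 and Zfp943 had differences of -0.32, -0.37, -0.41, -0.32 and -0.47, of which that of Zfp760 was called, and Zfp820 had 0.04. Zfp943 was not called (limma, adjusted p = 0.0599), and without vitamin C replicate 3 it was (-0.59, adjusted p = 0.0371). Among them lies Zfp229, not itself a member, which had 7.90, 8.11 and 7.89 in vitamin C arrays and 7.20, 7.32 and 7.36 in untreated arrays. It rose by 0.67 ± 0.08 (limma, adjusted p = 0.00345), while the nearest members, Zfp760 before it and Zfp820 after it, had -0.41 and 0.04. In the next run Zfp946 fell, while Zfp944 had -0.01, Zfp758 -0.13 and Zfp947 0.11. In the third run, Zfp811 and Zfp799 fell, while Zfp871 had 0.00 and Zfp870, Zfp952 and Zfp763 had -0.09, -0.09 and -0.31.

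Chromosome 7 held the most members, 33, with 1 rise, 3 falls, 25 below 0 and a median of -0.09, while 4.32% of all genes of that chromosome rose and 9.55% fell. All 3 members of chromosome 10 lay below 0 and 2 of them, Zfp938 and Zfp873, fell, while 7.77% of that chromosome's genes fell and their median was 0.02. On chromosome 4, 2 of 9 members lay below 0 and the median was 0.20, against 0.01 for the chromosome's 1161 genes, with 1 rise (Zfp982) and 1 fall (Zfp691), while 5.51% of that chromosome's genes rose and 7.15% fell. Whether these medians differ from those of all genes was not tested.

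Zfp982 heads a run with Zfp985 and Zfp979, and several chromosome 4 members are close copies of one another. Zfp600 had 6.80, 6.66 and 6.52 in vitamin C arrays and 6.48, 5.85 and 5.85 in untreated arrays, and although the groups were just apart, its difference of 0.60 ± 0.17 was not called (limma, adjusted p = 0.0629). Zfp991 and Zfp985 had 0.26 each, Zfp980 had 0.20 and Zfp979 had 0.11, and none was called (limma, adjusted p = 0.0732 to 0.411). The promoter windows of 3 of these genes are printed to show how alike they are, from RefSeq on GRCm38.p6 with CpG in capitals. Zfp979 is at chr4:147642509-147642758, minus strand, Zfp980 at chr4:145670447-145670696, plus strand and Zfp985 at chr4:147553027-147553276, plus strand.
Zfp979: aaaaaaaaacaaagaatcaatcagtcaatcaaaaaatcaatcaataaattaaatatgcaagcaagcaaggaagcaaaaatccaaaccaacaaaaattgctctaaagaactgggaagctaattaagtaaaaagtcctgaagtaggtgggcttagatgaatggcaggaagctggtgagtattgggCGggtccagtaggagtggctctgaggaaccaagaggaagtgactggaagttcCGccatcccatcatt
Zfp980: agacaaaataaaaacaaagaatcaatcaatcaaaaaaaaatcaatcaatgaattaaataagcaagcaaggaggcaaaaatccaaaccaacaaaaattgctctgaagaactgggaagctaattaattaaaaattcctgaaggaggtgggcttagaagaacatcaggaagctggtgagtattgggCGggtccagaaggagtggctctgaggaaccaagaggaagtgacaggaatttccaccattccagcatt
Zfp985: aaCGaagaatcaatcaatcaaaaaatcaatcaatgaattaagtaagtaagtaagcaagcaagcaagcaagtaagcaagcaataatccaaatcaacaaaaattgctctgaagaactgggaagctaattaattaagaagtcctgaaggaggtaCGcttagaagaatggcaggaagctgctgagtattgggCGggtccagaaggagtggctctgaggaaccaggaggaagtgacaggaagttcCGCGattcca

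Over windows of 300 bases, Zfp979 and Zfp980 were 91.0% identical, Zfp979 and Zfp985 85.7%, and Zfp980 and Zfp985 86.0%. Zfp600 and Zfp979 were 96.3% identical. Zfp982, the called member of that region, was 49.3% to 50.3% identical to these. Identity of promoters does not show whether RNAs bind the same probes. Probe sets with several symbols name Zfp982 together with Zfp985, with differences of 0.21, 0.15 and 0.13, none of them called (limma over all probe sets). The first of these also names Zfp980. Close copies can share probe signal, and the part of this in the values of Zfp600, Zfp979, Zfp980, Zfp982 and Zfp985 was not tested.

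A promoter window or several were found for 121 members, 150 windows in all. The 6 that rose had 10 windows and the 14 that fell had 21. CpG numbers were averaged over the windows of a gene. A short sequence counted as found in a gene where any of its windows held it, so genes with more windows had more chances of a match. The median number of CpG in 300 bases was 12.7 over members, 8.0 over the 6 that rose, 7.25 over 14 of the 15 that fell and 15.0 over the 101 not called with a window. Over all genes it was 15.0, and 17 and 18 over all genes that rose and fell. The medians of called members were thus below those of called genes at large in both directions, a difference that was not tested. CACGTG was found on either strand in 14 members (11.6%, against 9.5% of all genes), in none of the 6 that rose and in 2 of the 14 that fell (Zfp946 among them). ACGTG, which CACGTG contains, was found in 23.1% of members and 24.4% of all genes, and GCGTG in 41.3% of members and 44.4% of all genes. GCGTG was found in 7 of the 14 members that fell, against 54.4% of all genes that fell. It was found in none of the 6 members that rose, against 49.5% of all genes that rose. The search covered the whole 300-base windows, of which the printed bases are a part, and a match is a description of letters only.

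Zfp735, Zfp677, Zfp950, Zfp616 and Zfp983 lay under the lower quartile of every array, 10 members did so on at least 1 array, and none of the 10 was called. Zfp788 had 2 probe sets with identical values. The 3 probe sets of Zfp985 differed by 0.26, 0.42 and 0.22, of which the second was called higher (limma over all single-symbol probe sets, adjusted p = 0.0403), while the one with the highest mean was not. A further 20 symbols of this form, Zfp932 among them, stood only on probe sets with several symbols and are not among the 139. Of 34 such probe sets 3 were called higher and 1 lower (limma over all probe sets), against 5.95% of all 35557 probe sets called in either direction.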

How the data were processed

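The RNA of 6 samples was hybridised to one-colour Affymetrix arrays after column extraction, whole-transcriptome amplification and biotin labelling, per the labels. The deposited values are taken as log2 signals, since their range fits that scale. RMA is named in the submitters' processing notes, with no software, version or probe-set level in the sources used here. RMA in general brings arrays to one distribution, which would hide a shift common to all genes. No detection calls were used.

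The table held 35557 probe sets, of which 21789 had 1 gene symbol, 1621 several and 12147 none in the platform annotation, which can be old. Each of 19938 genes was read from its brightest single-symbol probe set. The sample titles gave the groups. limma 3.58.1 under R 4.3.3 fitted vitamin C minus untreated with lmFit and eBayes at default settings and no covariate. P-values were adjusted by Benjamini-Hochberg over all genes and the threshold was 0.05. All adjusted p-values are from limma. The fit was tested on simulated data. The number of arrays limits the precision.

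The members and gene lists were chosen with earlier results of these data known. The genes named are up to 10 of the largest rises and falls among called members without overlap between groups, genes with a listed role, the ends of each neighbour run, up to 4 called silencing genes besides Trim28, Setdb1, Zfp57 and Zfp42, and genes whose probe sets disagreed. Others were chosen after their values were seen. Of the members, 138 matched the gene table (GRCm38.p6) by gene ID and the other by symbol. Same-numbered arrays did not deviate together (r of 0.05, 0.01 and -0.02 over all genes), so arrays were treated as unpaired. Alternatives changed the spread model, moderation, centring, signal trend, dim-gene filter, probe-set rule, threshold, block, arrays included and run gap. A split of the members by protein features was not analysed here. Promoter identity over all chromosome 4 pairs was added after the data were seen. Figures were drawn with matplotlib 3.10.9.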

Additional observations from a re-analysis of the deposited data

Results flagged for a closer look

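Probe sets that the annotation ties to several symbols took no part in the comparisons. Of the 34 such probe sets with at least 1 symbol of the Zfp600 to Zfp999 form, 3 were higher with vitamin C, 1 was lower and 30 were not called (limma, adjusted over all 35557 probe sets), with a median of 0.05. Of all 35557 probe sets, 5.95% were called in either direction. The 3 higher ones are given because these probe sets lie outside the gene results. The first and second name Zfp640, whose single-symbol probe sets were also higher. Whether they measure the same RNA was not tested, so they are not a separate signal. The first, shared by Zfp640 and 2410141K09Rik, had 9.44, 9.35 and 9.21 in vitamin C arrays and 8.81, 8.74 and 8.71 in untreated arrays, a difference of 0.58 (adjusted p = 0.0173). The second, of the same symbols, was higher by 0.51 (adjusted p = 0.0169). The third names Rex2, Zfp981, Zfp980, Zfp600, Zfp987 and Zfp979, and had 11.31, 11.26 and 11.26 in vitamin C arrays and 10.96, 10.92 and 10.84 in untreated arrays, a difference of 0.37 (adjusted p = 0.0248). In each of these 3 the groups did not overlap. The 1 lower probe set, shared by Gm15446 and Zfp932, had 9.17, 9.02 and 9.13 in vitamin C arrays and 9.60, 9.47 and 9.61 in untreated arrays, a difference of -0.45 (adjusted p = 0.0252). Another probe set of these same symbols had a difference of -0.03 with overlapping groups and was not called. Those that name Zfp932 with Zfp950, Arid4b and other symbols had -0.19 and -0.20 and were not called either. Which of the genes on a shared probe set gave its signal cannot be told apart.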

How the results depend on the processing

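Of the 21 called members, 10 kept their call in every setting run (Zfp640, Zfp738, Zfp809, Zfp873, Zfp930, Zfp938, Zfp941, Zfp946, Zfp951 and Zfp975). The 6 rises became 10 with a trended and robust spread and were 4 to 6 when 1 array was left out. The 15 falls became 26 with a trended and robust spread, 8 without moderation, 7 at an adjusted p under 0.01 and 10 to 12 when 1 array was left out. With the replicate number as a block, 6 members were higher and 13 lower. Zfp961, Zfp672 and Zfp691 lost their call there, so these 6 are not the same genes as the 6 rises. Over all genes, 2623 calls became 4151 with a trended and robust spread, 1545 without moderation, 901 at an adjusted p under 0.01, 1723 with the replicate block and, with any 1 of the 6 arrays left out, 1483 (without vitamin C replicate 1) to 1721 (without vitamin C replicate 2). Silencing genes called numbered 4, and 13 with a trended and robust spread. Centring the arrays moved the members' median difference to -0.10, from -0.06, and the median of all genes by -0.04. It also moved the split of all calls to 866 higher and 1830 lower (32.1% higher), against 1147 higher and 1476 lower. Where the signal trend was subtracted, the split was 1194 higher and 1286 lower. That trend had a median of -0.03 over the members, beside their median difference of -0.06. With 1 array left out the members' median was -0.0633 (without untreated replicate 3) to -0.0371 (without untreated replicate 1). Zfp672 reversed to 0.0039 when its probe sets were averaged, which takes in its second, higher probe set. With at most 2 genes between members, 7 runs were left in place of 11. The cause of the other shifts was not tested. Depth has no equivalent here, and 10 members under the lower quartile on at least 1 array are limited by their signal.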
